A study of Homo sapiens with 2 samples.

Results

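Circular RNAs (circRNAs) of 6 genes of the cell death machinery were examined in SW620, an established human colorectal cancer cell line. The hosts were the death receptors TNFRSF10B and TNFRSF21, the kinase RIPK1, the protease CASP2 and the inhibitor of apoptosis (IAP) genes BIRC2 and BIRC6. A circRNA was taken when exactly 1 of these names stood in its host field, which gave 7 of the 1485 circRNAs in the deposited table, 2 of BIRC6 and 1 of each other host. One library came from cells given Hedyotis diffusa-Sculellaria barbata (HD-SB, a pair of medicinal herbs) at 1 mg/mL with collection after 24 h, and the other from control cells of the same line. No other treatment of the control is described in the labels. RNase R, which digests linear RNA, had been used on both RNA samples, so the values count reads across back-splice junctions and say nothing of the host's mRNA. With 1 library per group there was no replicate error and no test.

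A circRNA forms when the end of an exon is spliced back to the start of the same or an earlier exon. Death receptors are cell surface proteins of the tumour necrosis factor receptor superfamily whose intracellular death domain assembles signalling complexes after ligand binding. RIPK1 is recruited to such complexes and can pass on survival or death signals. Caspases are the proteases that carry out or start apoptosis, and IAP proteins restrain them, several of them as ubiquitin ligases. TRAIL, the ligand of TNFRSF10B, has been widely studied as an agent against colorectal cancer cells.

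The HD-SB library held 11570 back-splice reads on 1475 circRNAs and the control library 91 reads on 32. The lowest listed value was 2 reads in both libraries, and both libraries shared 22. Among hosts fixed as markers, 3 of 16 colon epithelium genes (EPCAM, EPHB2 and VIL1) had circRNAs, against 0 of 12 leukocyte, 0 of 10 fibroblast and smooth muscle and 0 of 6 endothelium genes. All 54 reads of these markers were in the HD-SB library and none in the control, so the check covers the HD-SB library alone. Most colon epithelium genes had no circRNA either, and the share of all genes that were hosts was not computed. A circRNA of a host is not the level of its mRNA. A count of 0 therefore does not show that a cell type was absent.

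For 6 of the 7 circRNAs the exons could be named. The span of each (end minus start plus 1) equalled, to the base, the distance from the start of one exon to the end of another in 1 place of the host gene in the GENCODE 29 annotation. Over the whole table, 1245 of 1312 circRNAs with a single host name in that annotation (94.9%) had such a stretch, whereas spans lengthened or shortened by 7, 20 or 50 bases had one in 0.991% to 1.75%. Only 14 of the 1245 lay at the same coordinates as their exons, and none of the 6 did. The table's positions are therefore printed as deposited, with the build not established, although GRCh38 is named in the submitters' processing notes. Both BIRC6 circRNAs lay at the same distance from their exons. The exons below rest on this equality of length, which bears on the start of the first exon and the end of the last alone. That every annotated exon between them was kept and every intron removed was assumed and not measured. Spliced lengths, sequences, base content, seed matches and reading frames below hold under that assumption.

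The back-splice junctions are what the counted reads cross. Here 5 are shown as the GENCODE 29 transcripts (GRCh38, transcript strand, 5′ to 3′) give them, not as read from the cells. The RIPK1 junction is not printed, since only circles wholly in coding sequence are shown. Lower case marks the last 25 bases of the last exon and capitals the first 25 bases of the first exon of the circle.
TNFRSF21, hsa_circ_0001610, exon 3 to exon 2: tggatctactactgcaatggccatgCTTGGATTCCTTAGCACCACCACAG
CASP2, hsa_circ_0008612, exon 4 to exon 3: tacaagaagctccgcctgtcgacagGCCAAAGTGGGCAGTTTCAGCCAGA
BIRC2, hsa_circ_0004103, exon 6 to exon 4: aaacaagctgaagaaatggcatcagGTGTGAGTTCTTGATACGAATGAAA
BIRC6, hsa_circ_0053441, exon 6 to exon 2: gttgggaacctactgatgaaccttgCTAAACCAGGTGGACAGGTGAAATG
BIRC6, hsa_circ_0002408, exon 37 to exon 36: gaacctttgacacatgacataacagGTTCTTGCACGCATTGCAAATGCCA
The CASP2 circle, the shortest of the 6 at 250 bases, is given whole, with exon 3 (168 bases) in lower case and exon 4 (82 bases) in capitals. The intron between them is taken as removed.
CASP2, hsa_circ_0008612, whole: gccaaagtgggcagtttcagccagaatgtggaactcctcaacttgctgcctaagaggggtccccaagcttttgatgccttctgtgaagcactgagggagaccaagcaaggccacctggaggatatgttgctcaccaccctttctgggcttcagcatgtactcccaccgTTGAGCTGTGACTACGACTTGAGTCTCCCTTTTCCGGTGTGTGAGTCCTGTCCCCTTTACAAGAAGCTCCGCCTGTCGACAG

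The 6 circles ranged from 250 to 1147 bases, as the map of the exons joined in each circle shows to scale. Of the 6 circles, 4 joined 2 exons, against 32.9% of the 1230 circRNAs of the table that matched a single stretch. The first exon of the circle was exon 2 in 3 of 6, against 29.8% in the table, and 5 of 6 lay wholly in coding sequence, against 80.4%. With 6 circles these counts describe the set and were not tested.

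**Figure D1:**
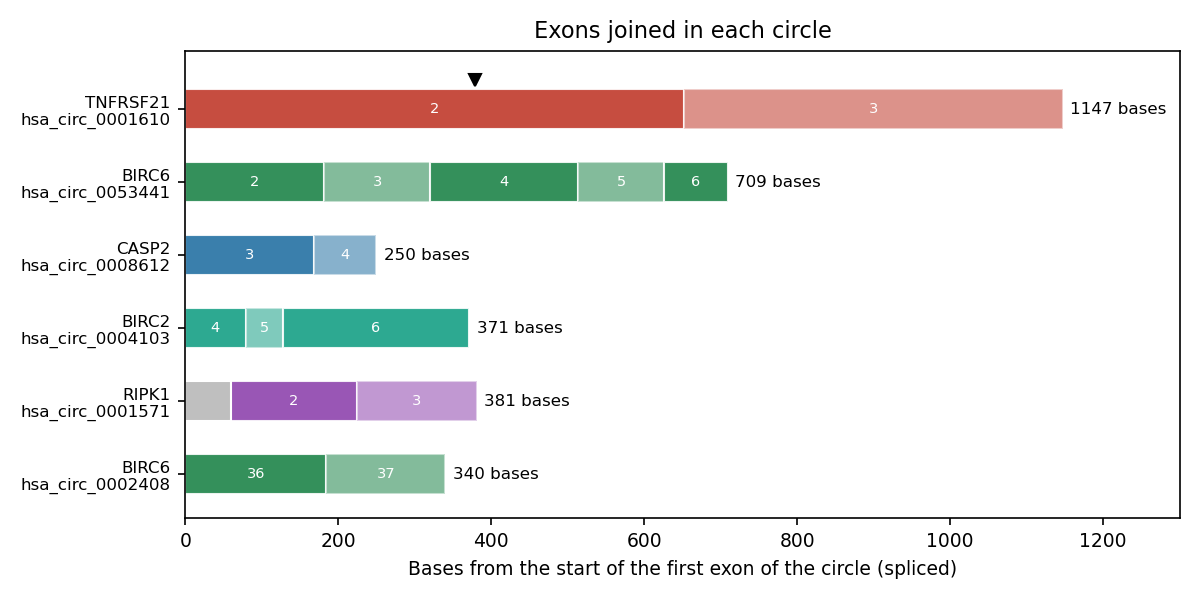
Exons joined in each of the 6 circles, by distance in spliced bases from the start of the first exon (x axis), with exon numbers inside the bars, bases before the start codon in grey and the seed match of miR-204-5p as a triangle. The circles range from 250 bases in CASP2 to 1147 bases in TNFRSF21, and RIPK1 is the 1 circle with bases outside the coding sequence. Exons between the ends are taken as kept and introns as removed.

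All 7 circRNAs were listed in the HD-SB library and none in the control. Together they held 38 HD-SB reads, or 0.328% of that library (95% Clopper-Pearson interval 0.233 to 0.451), which is 3284 CPM (counts per 1000000 back-splice reads of the library). Of all circRNAs in the table, 97.8% were likewise listed in HD-SB and not in the control, and 2.15% were listed in the control, so 7 of 7 and 0 of 7 are close to the background. With 1 library per group the intervals cover the error of counting alone. Copies made by amplification can be counted more than once, so the intervals may be too narrow even for that. The number of cells that hold a circle and the number of copies per cell cannot be told apart in these bulk libraries.

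The lowest level listed in the control was 21978 CPM. If values are converted with the largest step that fits and 2 reads were the only condition for listing, an unlisted circRNA had 0 or 1 control read, that is 0 or 10989 CPM. How circRNAs were filtered is not stated, so an unlisted circRNA may have held more. The highest of the 7 in HD-SB, TNFRSF21, stood at 951 CPM. At their HD-SB shares the 7 circRNAs together would have come to 0.299 reads among the 91 of the control. A control level equal to or below that of HD-SB was therefore not detectable at this depth for any of the 6 hosts. Under the same conditions a circRNA with 2 or more control reads would have been listed, and none of the 7 was. This is a limit on reads and not on the level, since a level near 21978 CPM can give 0 or 1 read by counting error. No fold is given.

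**Figure D2:**
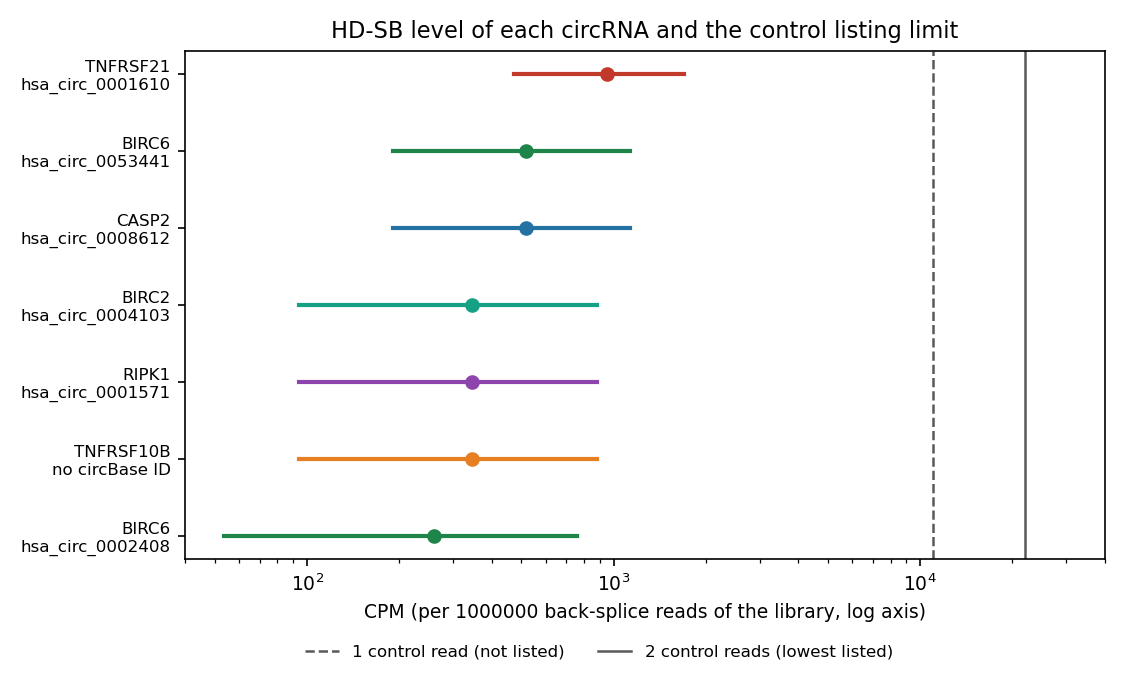
HD-SB level of each of the 7 circRNAs in CPM on a log axis (points) with 95% exact Poisson intervals (bars), beside the level of 1 control read (dashed line, below the lowest listed) and of 2 control reads, the lowest listed control level (solid line). Every point and interval lies to the left of 10989 CPM, the level of 1 control read.

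Among the receptors, TNFRSF21 (death receptor 6) had the most reads of the 6 hosts. Its circRNA hsa_circ_0001610 spanned 2658 bp in the table's coordinates (chromosome 6, 47251674 to 47254331) and had 11 HD-SB reads (exact Poisson interval 5.49 to 19.7) at 951 CPM, and 0.001, the mark of an unlisted circRNA, in the control. That was 28.9% of the reads of the 7 circRNAs, and 85.1% of the circRNAs listed in HD-SB had fewer reads. The circle joined exons 2 (652 bases) and 3 (495 bases) of the 6 exons of TNFRSF21-201, which cover codons 33 to 415 whole or in part. Its spliced length of 1147 bases was the longest of the 6 circles, and 97.3% of the matched circRNAs of the table were shorter. By contrast its span lay below the median span of the table, 4111 bp, and it crossed a single intron of 1511 bases.

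Across both libraries, 21 single-name hosts besides TNFRSF21 had the same values, 1 circRNA with 11 HD-SB reads and none listed in the control. Nearest in span among them were HMGA1 (2782 bp, no circBase identifier), NACC2 (3231 bp, hsa_circ_0089513) and USP25 (3251 bp, hsa_circ_0001178). The measure of likeness was equality of the number of circRNAs and of the reads in both libraries, that is over 2 libraries, with the control at 0 for all of them.

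The miRNA miR-204-5p is named in the title of the series. Its mature sequence from the RefSeq table (GRCh38.p14) is shown with the seed, bases 2 to 8, in capitals, and below it the stretch of the TNFRSF21 circle that holds the reverse complement of the seed, AAAGGGA, again in capitals.
hsa-miR-204-5p: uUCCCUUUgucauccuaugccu
TNFRSF21, hsa_circ_0001610, exon 2: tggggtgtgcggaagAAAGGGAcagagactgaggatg
The match lay at bases 379 to 385 of the circle, in exon 2 and in coding sequence. TNFRSF21 was the 1 circle of the 6 with these 7 letters, read on the strand of the transcript and across the junction. They occurred in 4.39% of the 1230 matched circRNAs and in 4.37% of the 1143 whose spliced length was between 250 and 1147 bases. Neither share is matched to the length of the TNFRSF21 circle, which is the upper end of that range. A longer circle has more places for a match. With bases 2 to 7 of the seed alone (AAGGGA, a setting added after the data were seen), TNFRSF21 and RIPK1 held a match, against 14.6% of all matched circRNAs. A match of letters is a description of the sequence and not a measured binding site.

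**Figure D3:**
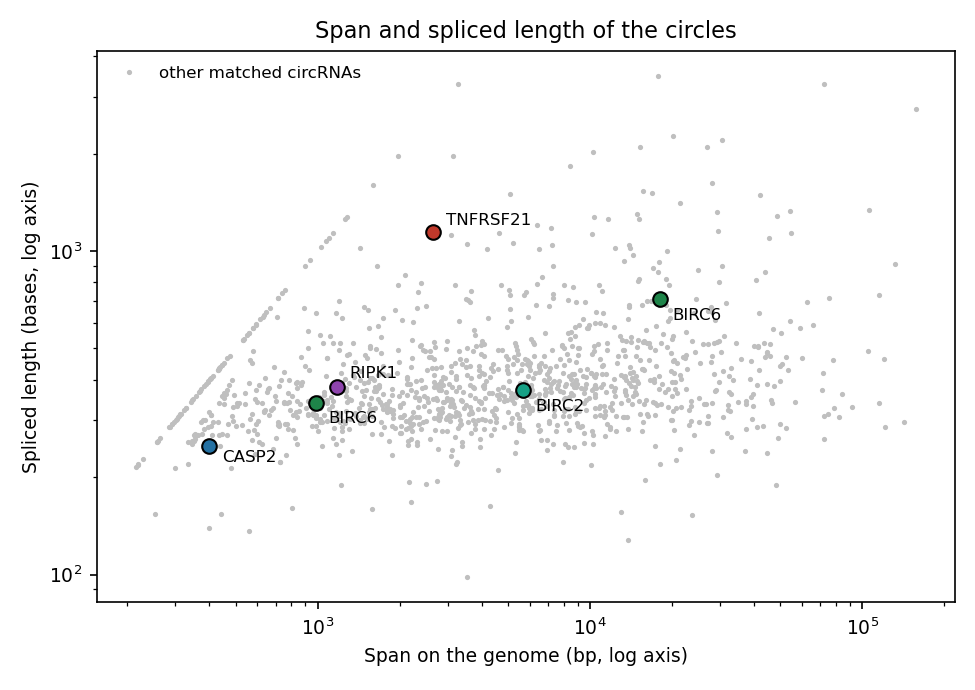
Spliced length against span on the genome, both on log axes, for the 1230 circRNAs matched to a single stretch of exons (grey) and the 6 circles of this set (coloured and named). TNFRSF21 lies high for its span (1147 of 2658 bases), and the 2 BIRC6 circles lie far apart in span, at 983 and 18006 bp.

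RIPK1, the kinase that links receptor complexes to either survival or death signalling, gave hsa_circ_0001571 (chromosome 6, 3076998 to 3078169 in the table's coordinates, 1172 bp). It had 4 HD-SB reads (1.09 to 10.2), 346 CPM, and was unlisted in the control. The circle joined exons 2 (224 bases) and 3 (157 bases) of the 11 exons of RIPK1-201 and was 381 bases long. It was the 1 circle that held bases outside the coding sequence, 60 before the start codon, and the start codon itself, so its coding part was codons 1 to 107. It was also the 1 circle of the 6 whose length was a multiple of 3, against 37.3% of the matched circRNAs. Read from the annotated start codon, the frame passed the junction and returned to the start codon after 127 codons without a stop codon. Of the 192 matched circRNAs with an annotated ATG start codon, 25 (13.0%) had no stop codon when read in this way. The length was a multiple of 3 in 60 of the 192, and how many of the 25 are among these was not counted. A circle of another length is read in all 3 frames, so it has more places for a stop codon. The 13.0% is therefore not matched to the RIPK1 circle. This describes the reference sequence, and translation was not measured.

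CASP2, an initiator caspase, gave the smallest circle. Its circRNA hsa_circ_0008612 spanned 399 bp (chromosome 7, 142989393 to 142989791), and only 4.71% of the circRNAs in the table spanned less. It had 6 HD-SB reads (2.20 to 13.1), 519 CPM, and was unlisted in the control. Of the circRNAs listed in HD-SB, 58.5% had fewer reads, and their median was 5. Exons 3 and 4 of the 11 exons of CASP2-201, codons 76 to 159 whole or in part, were separated by an intron of 149 bases.

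The IAP genes gave 3 circRNAs and 13 HD-SB reads. BIRC6, a very large IAP that also conjugates ubiquitin, was the 1 host of the 6 with 2 circRNAs. Of the 1074 single-name hosts of the table, 19.1% had 2 or more. Its hsa_circ_0053441 (chromosome 2, 32602656 to 32620661) had 6 HD-SB reads (2.20 to 13.1), 519 CPM, and its hsa_circ_0002408 (chromosome 2, 32703703 to 32704685) had 3 (0.619 to 8.77), 259 CPM. Neither was listed in the control. Their intervals overlapped, so which of the 2 is more abundant cannot be said. They shared no end and were 83041 bp apart.

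The first BIRC6 circle joined exons 2 to 6 of the 74 exons of BIRC6-201, 709 bases covering codons 109 to 345 whole or in part. It spanned 18006 bp, more than 83.7% of the table, of which 17297 were intron. The second joined exons 36 and 37, 340 bases with codons 2357 to 2470, and spanned 983 bp. The same host thus gave the widest span of the 7 circRNAs and, after CASP2, the narrowest.

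BIRC2 encodes cIAP1, a ubiquitin ligase that modifies RIPK1 in receptor complexes. Its hsa_circ_0004103 (chromosome 11, 102233627 to 102239279, 5653 bp) had 4 HD-SB reads (1.09 to 10.2), 346 CPM, and was unlisted in the control. Exons 4 to 6 of the 9 exons of BIRC2-201 made a circle of 371 bases with codons 332 to 456 whole or in part, equal to the median spliced length of 371 bases in the table. At 38.5% its G and C content was the lowest of the 6 circles, which reached 54.4% in CASP2 with a median of 49.6%, against 49.7% over the matched circRNAs.

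TNFRSF10B (death receptor 5, a receptor of TRAIL) stood apart from the other hosts in its annotation. Its circRNA (chromosome 8, 22899554 to 22900756, 1203 bp) had 4 HD-SB reads (1.09 to 10.2), 346 CPM, and was unlisted in the control. It had no circBase identifier, while the other 6 did, and its host field held 6 names, TNFRSF10B after the small-RNA names SNORA70, U3, snoU13, SNORD112 and Y_RNA. The same 5 small-RNA names stood together in 4 rows of the table, this one included, all without a circBase identifier. An identifier was missing for 58.3% of the 108 circRNAs with several names and for 21.7% of the 1377 with 1 name. No stretch between annotated exon ends of TNFRSF10B was 1203 bases long, so no exons were named, and that the circle comes from this gene rests on the host field alone.

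By level, the order in HD-SB was TNFRSF21 with 11 reads, BIRC6 hsa_circ_0053441 and CASP2 with 6 each, BIRC2, RIPK1 and TNFRSF10B with 4 each, and BIRC6 hsa_circ_0002408 with 3. All 7 intervals shared the range from 5.49 to 8.77 reads, so no neighbours in that order, nor its ends, were separated beyond counting error. The median of the 7 was 4 reads, against 5 over all circRNAs listed in HD-SB, whose middle part ran from 3 to 8 reads and whose highest value was 373. Summed by host, BIRC6 came to 9 reads, second to TNFRSF21, and 31.1% of single-name hosts had 9 reads or more. The median span was 1203 bp, against 4111 bp in the table. That value is the span of TNFRSF10B and becomes 1915 bp without that circRNA.

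**Figure D4:**
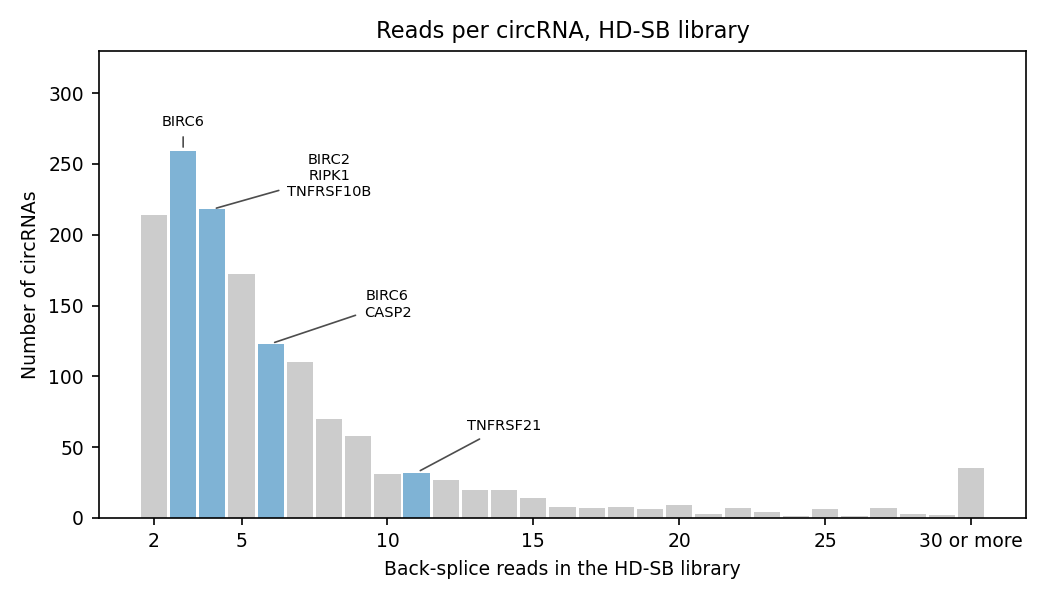
Number of circRNAs (y axis) by back-splice reads in the HD-SB library (x axis, 30 or more pooled), with the columns that contain circRNAs of the 6 hosts in blue. Of the 7, TNFRSF21 with 11 reads is the highest, and 4 stand at 3 or 4 reads, below the median of 5.

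The rest of the pathway was covered by lists of 136 gene names in all. They gave 17 circRNAs from 14 hosts, with 83 HD-SB reads, a median of 4 reads and no listed control read. Death receptors and their ligands had circRNAs for 2 of 16 genes, both described above, and caspases for 1 of 12, CASP2. The IAPs and their antagonists had them for 2 of 12, BIRC2 and BIRC6. Of the 31 adaptors and complex members, RIPK1 and TRAF5, a signal adaptor of the receptor superfamily, were hosts. TRAF5 gave hsa_circ_0007234 with 9 HD-SB reads, beside the 4 of RIPK1. The list of the BCL2 family and mitochondrial pathway held 34 names, with 1 gene under both BIM and BCL2L11. Its hosts were CAPN1, a calcium-dependent protease, and VDAC3, a channel of the outer mitochondrial membrane. No BCL2 family member was a host. The table had 1074 single-name hosts, and the share of all genes that were hosts was not computed. The counts per list therefore describe the lists, and the lack of a host is not a result about a gene family.

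Of the 22 genes around p53, 4 gave 6 circRNAs with 28 HD-SB reads. PPM1D, a phosphatase that acts against p53 signalling, had hsa_circ_0002598 with 10 reads, and ATM, the DNA damage kinase, had 3 circRNAs, of which hsa_circ_0024230 had 8 reads. PPP1R13L and TP53BP1 were the other hosts. Among 9 NF-kappaB genes RELB was the only host. These lists were written with earlier results of the data known, and a host without a listed circRNA may still have circles that were not listed.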

How the data were processed

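Per the labels' protocols, ribosomal RNA was removed from the total RNA, linear RNA was digested with RNase R, and 2 libraries were made by fragmentation and PCR. The submitters' processing notes list FastQC, HISAT2 2.1.0 and GRCh38 without saying what each was used for. How circRNAs were called and filtered is not given in the sources used here. The values, called TPM per the file headers, were taken as CPM as deposited by the authors, since every listed value was, to within 0.01, a whole number of steps of 1 size per library and each column added up to 1000000. Dividing by the step (86.4 CPM in HD-SB and 10989 CPM in the control) gave reads; 0.001 marked a circRNA that was not listed. This is the largest step that fits, so the reads are the fewest possible.

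Shares have 95% Clopper-Pearson and reads 95% exact Poisson intervals (scipy 1.17.1, Python 3.11.15). With 1 library per group, no log ratio, pseudocount or test was used. The limit of 3 reads planned for a count of 0 was not used, because no listed value was below 2 reads. Exons were matched by span to GENCODE 29 transcripts, a step added after the data were seen. The transcript shown was the principal one, then the one with most exons. Recovery of reads and exon matching were tried on simulated data. In the exon trial each stretch was drawn from the 1 transcript that was searched. Finding it was therefore fixed in advance, and the trial checks the code alone. The hosts, gene lists and descriptions were chosen with earlier results of these data known. All circRNAs of the 6 hosts were named. From the gene lists every host was named, with values only from 5 reads, and for the host with the most reads up to 3 hosts with the same values. Alternatives were single host names, minimums of 3 and 5 reads, circBase identifiers alone, another denominator, 1 value per host and leaving out TNFRSF21.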

Additional observations from a re-analysis of the deposited data

How the results depend on the processing

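Of 31 values under the alternative settings, 24 stayed within 1.5 times the reported value or, for the share of reads, within its interval, and 7 did not. The control reads of the 7 circRNAs are not counted here, since each alternative only removes circRNAs and 0 could not change. Several of the 24 could not move either. All 7 circRNAs had at least 3 reads, so a minimum of 3 reads removed none of them. Single host names and circBase identifiers alone left the same circRNAs. Leaving out 1 circRNA of 7 could not move their number beyond 1.5 times. The 24 are therefore not separate checks. A minimum of 5 reads left 3 circRNAs and 23 HD-SB reads, by removing the 4 circRNAs under it, with a median span of 2658 bp. The median span was 1915 bp with single host names and again with circBase identifiers alone, both of which remove TNFRSF10B, and 1930.5 bp with 1 value per host. The 6-base match to miR-204-5p, added after the data were seen, gave 2 circles in place of 1. Without TNFRSF21 there were 27 HD-SB reads, a share of 0.233%. No paired analysis was possible because there was 1 library of each kind. The 91 control reads limit every comparison between libraries.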
